A study of Mus musculus with 96 samples.

Results

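The genes of Polycomb repressive complex 2 (PRC2) taken here are Ezh1, Ezh2, Suz12, Eed, Rbbp4, Rbbp7, Jarid2, Aebp2, Phf19 and Mtf2. Their peaks are those whose deposited gene symbol is 1 of these 10 names, and 26 of the 22815 consensus peaks in 6 tables qualified. Of these, 11 lay in the H3K4me3 table of NeuN+ nuclei, 5 in H3K4me3 NeuN-, 7 in H3K27me3 NeuN+ and 1 each in H3K27me3 NeuN-, Suz12 NeuN+ and Suz12 NeuN-. The tables come from chromatin immunoprecipitation and sequencing of hippocampal nuclei sorted by fluorescence on NeuN, a protein of neuronal nuclei. The mice were C57BL/6N, 6 months old and, per the methods of the study, male, and were wild type (WT), Mutyh-/-, Ogg1-/- or deficient in both genes (Mutyh-/-xOgg1-/-, here DKO, obtained by crossing the single knockouts). Each genotype had 3 replicates per antibody and fraction, so each of the 6 tables holds 12 libraries, 72 in all. A replicate was made from pooled hippocampi of several mice of a genotype, and the 3 knockouts were each set against the same WT libraries. The nuclei were sorted in bulk, so fewer cells carrying a mark and less of the mark per cell cannot be told apart.

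PRC2 places methyl groups on lysine 27 of histone H3, and its trimethylated form, H3K27me3, marks silenced genes. The catalytic subunit is Ezh2 or its relative Ezh1, and both need Suz12 and Eed for activity, whereas Rbbp4 and Rbbp7 bind histones. Mtf2 and Phf19 are Polycomb-like proteins, and Jarid2 and Aebp2 belong to another variant of the complex. In postmitotic neurons Ezh1 is the more widely used catalytic subunit and Ezh2 is better known from dividing progenitors. H3K4me3 marks the starts of active or poised genes, so at these genes it reports on the promoters that supply the complex, while H3K27me3 and Suz12 show where the complex itself acts.

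The promoters of these genes were rich in CpG. In RefSeq promoters of 300 bases (250 before the start and 50 after it, GRCm38.p6), the 10 genes held between 17 and 41 CpG, with a median of 30.5, against a median of 7.0 over all 32851 promoters in the set. Promoters of both catalytic genes, of Suz12 and of Phf19 are shown because they differ most in the words they hold. Capitals mark matches on either strand to the words described after the sequences.
Ezh1 (chr11:101226414-101226713, minus strand): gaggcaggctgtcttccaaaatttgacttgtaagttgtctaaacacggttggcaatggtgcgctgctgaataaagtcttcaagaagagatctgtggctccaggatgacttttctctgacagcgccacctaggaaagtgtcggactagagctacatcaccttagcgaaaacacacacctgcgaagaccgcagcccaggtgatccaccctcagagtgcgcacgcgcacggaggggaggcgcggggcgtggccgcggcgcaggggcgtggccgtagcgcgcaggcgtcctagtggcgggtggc
Ezh2 (chr6:47594981-47595280, minus strand): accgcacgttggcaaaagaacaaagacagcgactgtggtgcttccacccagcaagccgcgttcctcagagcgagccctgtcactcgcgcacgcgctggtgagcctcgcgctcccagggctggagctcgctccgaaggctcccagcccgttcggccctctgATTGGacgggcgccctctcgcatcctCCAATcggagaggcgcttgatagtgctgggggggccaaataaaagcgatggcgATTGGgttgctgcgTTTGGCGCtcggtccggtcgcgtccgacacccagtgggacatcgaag
Suz12 (chr11:79992856-79993155, plus strand): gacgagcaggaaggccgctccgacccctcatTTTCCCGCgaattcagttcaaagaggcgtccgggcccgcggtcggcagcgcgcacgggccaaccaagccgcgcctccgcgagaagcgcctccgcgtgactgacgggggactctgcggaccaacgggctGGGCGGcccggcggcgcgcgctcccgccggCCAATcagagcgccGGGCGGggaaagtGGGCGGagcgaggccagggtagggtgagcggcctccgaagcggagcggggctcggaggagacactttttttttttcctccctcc
Phf19 (chr2:34913927-34914226, minus strand): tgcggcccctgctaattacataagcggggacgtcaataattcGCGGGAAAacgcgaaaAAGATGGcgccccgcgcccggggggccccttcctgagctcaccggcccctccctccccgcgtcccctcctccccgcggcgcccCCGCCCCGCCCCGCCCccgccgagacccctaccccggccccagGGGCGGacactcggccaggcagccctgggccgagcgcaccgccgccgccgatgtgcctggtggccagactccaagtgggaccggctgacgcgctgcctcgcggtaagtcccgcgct
An E2F word, that is TTTCCCGC, TTTCGCGC, TTTGCCGC or TTTGGCGC, stood in 3 of the 10 promoters, those of Ezh2, Suz12 and Phf19, and in 2.26% of all promoters. The GC box, GGGCGG, stood in 7 of 10, against 35.7% of all promoters. The word CCAAT stood in 6 of 10, against 37.4%. A YY1 word, AAGATGG, was found in that of Phf19 and in 6.34% of all promoters. The ETS word CCGGAAG matched in 0 of the 10 and in 8.86% of all promoters. The cyclic AMP response element, TGACGTCA, and an NRF1 word, GCGCATGC, also matched in 0, against 1.79% and 2.71%. The promoter of Ezh1 held none of the words searched. A match is a run of letters and not a binding site, and words of 5 or 6 letters also occur often by base composition.

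Each value below is a signal: the reads counted in a window, scaled by 1 factor per library. At least 99.0% of the windows of a table have the same width, so levels can be compared between windows of a table per length. In H3K4me3 NeuN+, a library had between 96023 reads in peaks (DKO replicate 1) and 548706 (Ogg1-/- replicate 3), and in the other tables between 6652 and 120004. Windows masked over 50% or more of their length as repeats took between 0.121% and 4.73% of the reads of a library in H3K4me3 NeuN+. For the remaining tables this share reached from 6.68% to 85.7%. No pair of the 72 same-genotype pairs of libraries held identical values or agreed within sampling noise (chi-square per degree of freedom 1.77 or more). As a check of the fractions, 7 of 8 neuronal markers (Rbfox3, Syt1, Snap25, Slc17a7, Camk2a, Gad1 and Neurod2) had an H3K4me3 promoter peak in NeuN+ nuclei and 0 of 8 in NeuN- nuclei. In NeuN- nuclei, 1 of 6 oligodendrocyte markers (Olig1) had such a peak, and 0 of 5 astrocyte, 0 of 4 microglial and 0 of 3 endothelial markers did, so the cell types of this fraction are little resolved by the tables. In NeuN+ nuclei Mbp and Slc1a3, markers of oligodendrocytes and astrocytes, also had one. Mutyh had no peak in any table, and the H3K4me3 window at the Ogg1 promoter in NeuN+ nuclei, which does not show the deletion itself, had values of 15.4, 5.85 and 10.8 in WT and 17.9, 6.15 and 13.8 in Ogg1-/-.

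All 10 genes had an H3K4me3 peak at their promoter in NeuN+ nuclei. Their WT means spanned 4.55-fold, and the median over the 11 windows was 26.4 against 23.4 over all 12628 peaks. The order of the WT means was Aebp2 (41.7), Rbbp4 (40.9), Suz12 (35.6), Mtf2 (31.6), Ezh2 (28.3), Ezh1 (26.4), the distal Ezh2 window (25.0), Eed (23.4), Phf19 (19.7), Rbbp7 (9.45) and Jarid2 (9.16). Aebp2 and Rbbp4 stood at the 98.8th and 98.5th percentile of all peaks of the table, and Rbbp7 and Jarid2 at the 5.58th and 5.06th. In all 10 pairs of neighbours in this order the ranges of the 3 WT libraries overlapped. Both catalytic genes thus sat side by side in the middle of the order.

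**Figure D1:**
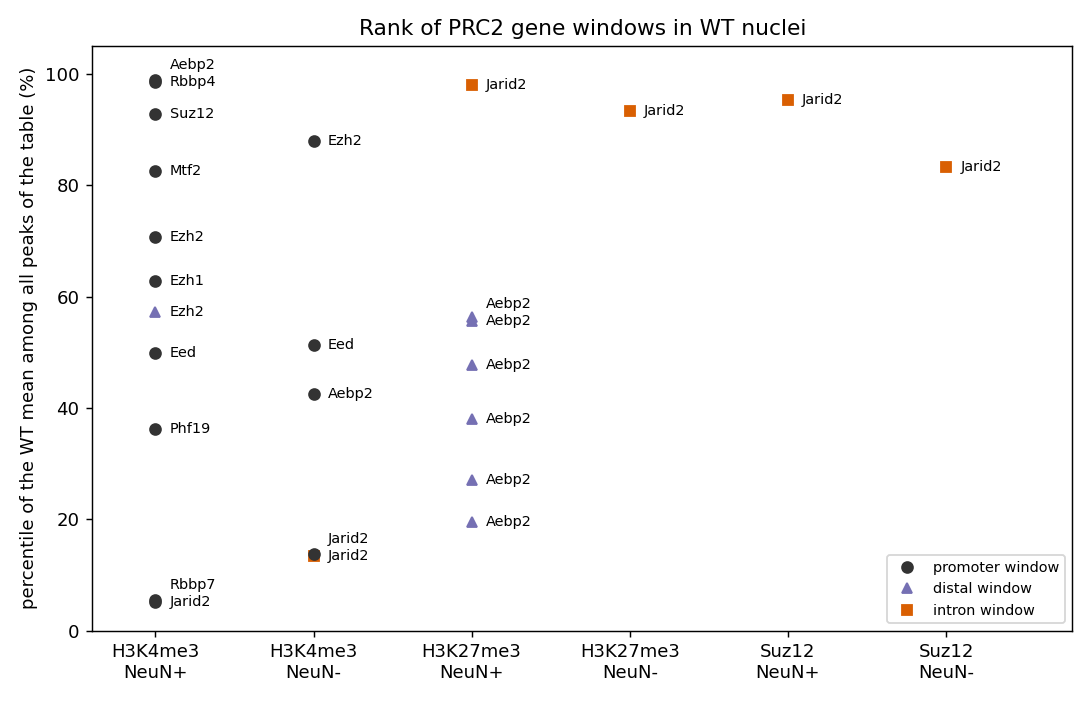
Rank of each PRC2 gene window in WT, as the percentile (y axis, %) of its mean of 3 WT libraries among all peaks of the same table (x axis). Circles are promoter windows, squares the Jarid2 intron and triangles distal windows; promoters appear in the H3K4me3 tables only, and the Jarid2 intron lies at the 83.3rd percentile or above in the 4 H3K27me3 and Suz12 tables.

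The catalytic genes carried H3K4me3 at comparable levels. The Ezh1 window (chr11:101226060-101226460), which covers the gene's start, had H3K4me3 values of 38.6, 24.4 and 16.2 in WT, 10.9, 23.9 and 34.2 in Mutyh-/-, 14.3, 17.4 and 29.2 in Ogg1-/- and 15.8, 39.4 and 20.5 in DKO. The Ezh2 window (chr6:47594550-47594950), 80 bases into the gene, had 43.7, 18.5 and 22.6 in WT, 29.4, 16.5 and 38.5 in Mutyh-/-, 32.1, 23.6 and 59.2 in Ogg1-/- and 29.3, 41.8 and 34.9 in DKO. The 4 groups overlapped at both genes, and libraries of a genotype differed by more than 2-fold in several cases. Against WT, the log2 fold changes of Ezh1 were -0.24 for Mutyh-/-, -0.34 for Ogg1-/- and -0.08 for DKO, each with an SE of 0.49. Those of Ezh2 were 0.01, 0.42 and 0.39 (SE 0.42). The 95% confidence intervals reached from -1.33 to 0.91 for Ezh1 and from -0.85 to 1.28 for Ezh2 over the 3 knockouts, so a doubling lay inside those of Ezh2 for Ogg1-/- and DKO but not for Mutyh-/-, and a halving inside those of Ezh1.

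A further H3K4me3 peak annotated to Ezh2 lay 55.8 kb upstream of its start (chr6:47651141-47651541), in intergenic sequence. It covers the start of Gm40371, a long non-coding RNA gene of RefSeq on the minus strand (position 47651320), and 64.1% of its bases are G or C. Its H3K4me3 values were 29.6, 7.81 and 37.7 in WT and between 18.0 and 33.8 in the 9 knockout libraries. The lowest value was that of a WT library, and the log2 fold changes of 0.21, 0.21 and 0.22 for Mutyh-/-, Ogg1-/- and DKO (SE 0.48) rest on it. The window is assigned to Ezh2 only as the closest gene.

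The core genes Suz12 and Eed did not pass the test either. Suz12, which holds the complex together, had H3K4me3 values of 43.7, 25.4 and 37.7 in WT, 27.2, 23.9 and 44.7 in Mutyh-/-, 29.8, 18.5 and 46.1 in Ogg1-/- and 36.1, 21.7 and 37.9 in DKO. Replicate 2 was the lowest library in each genotype. The log2 fold changes were -0.17, -0.23 and -0.16 for Mutyh-/-, Ogg1-/- and DKO (SE 0.41). Eed, the subunit that binds trimethylated H3K27, had 23.2, 13.7 and 33.4 in WT, 25.1, 19.3 and 28.9 in Mutyh-/-, 21.4, 17.4 and 28.5 in Ogg1-/- and 9.02, 19.3 and 30.3 in DKO. Its log2 fold changes were 0.13, 0.00 and -0.31 (SE 0.47), and the groups overlapped in each contrast. The Eed window lies next to the start of the non-coding RNA gene E230029C05Rik on the other strand, within 1 kb, so its signal may belong to both.

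Rbbp4 and Rbbp7, close relatives that bind histone H4, lay at opposite ends of the order. The Rbbp4 window, within 1 kb of the start of Zbtb8os on the other strand, had 51.5, 30.2 and 40.9 in WT, 34.9, 24.8 and 29.8 in Mutyh-/-, 33.3, 28.7 and 47.7 in Ogg1-/- and 29.3, 23.3 and 36.4 in DKO. The X-linked Rbbp7 window had 9, 10.7 and 8.62 in WT, 19.6, 11.9 and 14.0 in Mutyh-/-, 20.2, 1.03 and 27.7 in Ogg1-/- and 13.5, 14.5 and 15.2 in DKO. The ranges of these genes in WT were far apart, between 30.2 and 51.5 for Rbbp4 and between 8.62 and 10.7 for Rbbp7. The mice were male, so a nucleus holds 1 copy of X-linked Rbbp7 and 2 of Rbbp4. Values were not corrected for copy number, and how much of the gap or of the low rank of Rbbp7 comes from it was not tested. At Rbbp7, all 3 Mutyh-/- and all 3 DKO libraries lay above all 3 WT libraries. The log2 fold changes there were 0.61 for Mutyh-/-, 0.04 for Ogg1-/- and 0.56 for DKO (SE 0.71), with limma adjusted p values of 1. Ogg1-/- replicate 2, with 1 read, decided the value for Ogg1-/-: without it the log2 fold change was 1.25 (limma adjusted p = 0.914), and without replicate 1 or 3 it was -0.45 and -0.67. At Rbbp4 they were -0.42, -0.16 and -0.44 (SE 0.38), and the groups overlapped.

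Among the accessory genes, Jarid2 had the lowest level and Aebp2 the highest. The Jarid2 promoter window (chr13:44731141-44731541) had 10.3, 10.7 and 6.46 in WT, 13.1, 11 and 12.3 in Mutyh-/-, 17.9, 12.3 and 9.23 in Ogg1-/- and 13.5, 15.3 and 2.27 in DKO. The 3 Mutyh-/- libraries lay above the 3 WT libraries, with a log2 fold change of 0.39 (SE 0.67, limma adjusted p = 1), and the other groups overlapped with WT. Aebp2 had 54.0, 32.2 and 38.8 in WT, 21.8, 33.1 and 57.8 in Mutyh-/-, 42.8, 32.8 and 45.4 in Ogg1-/- and 29.3, 57.1 and 38.7 in DKO. All groups overlapped with WT, and its log2 fold changes were -0.22, -0.03 and -0.02 for Mutyh-/-, Ogg1-/- and DKO (SE 0.39). The WT and DKO means were both 41.7, and the DKO value was the closest to 0 among the 11 windows.

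Phf19 and Mtf2 were the members with the most negative values in DKO. The Phf19 window lies within 1 kb of the start of Gm13448 on the other strand, so its signal may belong to both. Phf19 had 30.9, 19.5 and 8.62 in WT, 16.3, 12.9 and 27.2 in Mutyh-/-, 15.5, 12.3 and 31.5 in Ogg1-/- and 9.02, 11.3 and 13.6 in DKO. The DKO libraries lay within the WT range, with a log2 fold change of -0.60 (SE 0.55, limma adjusted p = 1). Mtf2 had 39.9, 19.5 and 35.5 in WT, 17.4, 34.0 and 22.8 in Mutyh-/-, 40.5, 16.4 and 40.8 in Ogg1-/- and 4.51, 41.8 and 21.2 in DKO. In DKO its log2 fold change was -0.85 (SE 0.53, limma adjusted p = 1). The value of 4.51 at Mtf2 stands for 2 reads in the shallowest library. The DKO range contained the whole WT range at Mtf2. Without DKO replicate 1, the library with 2 reads, the Mtf2 value was -0.02. Without DKO replicate 2 the Mtf2 value was -1.5 (limma adjusted p = 0.990), and with TMM factors it was -0.81 (limma adjusted p = 0.842).

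**Figure D2:**
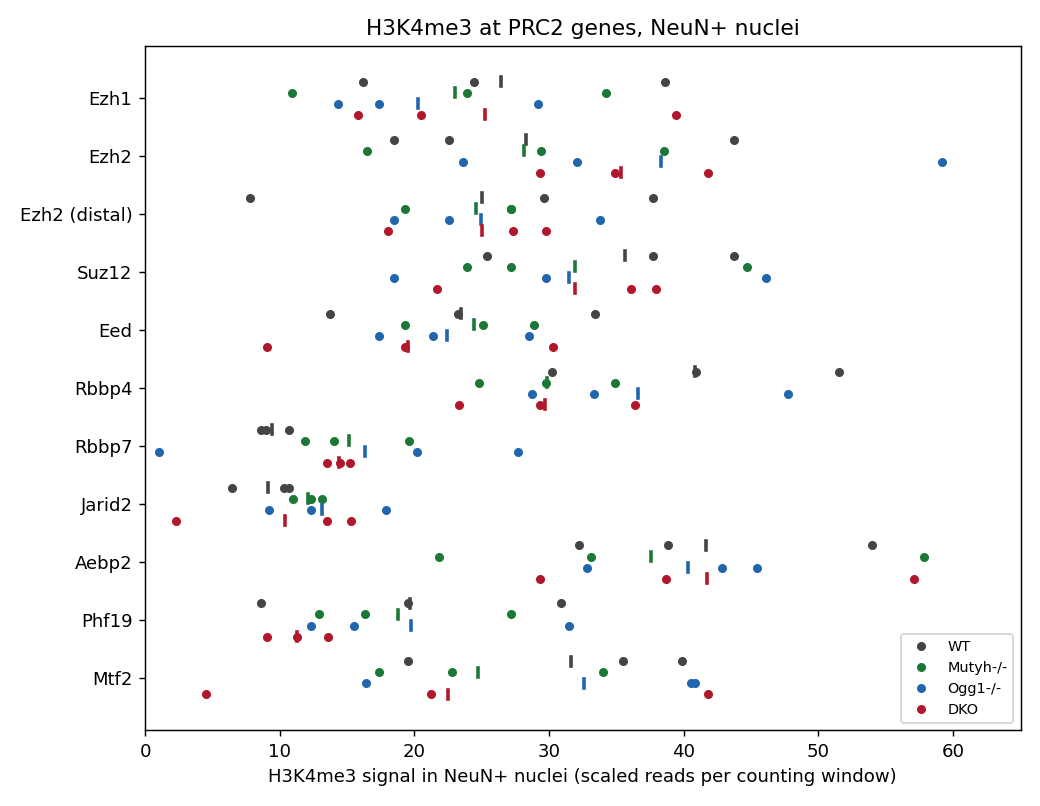
H3K4me3 signal (x axis, scaled reads per counting window) at the 11 windows of PRC2 genes (y axis) in NeuN+ nuclei. Points are the 3 libraries of each genotype and short bars their means; the genotypes overlap at most windows, while at Rbbp7 the WT libraries lie between 8.62 and 10.7 and the DKO libraries between 13.5 and 15.2.

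Whether the loss of a glycosylase changed H3K4me3 at these genes was tested over all peaks of the table with limma. The study called a region differentially enriched where its p, before adjustment, was below 0.05 and its log2 fold change exceeded 0.5 in size. The study took that p from edgeR, and here the same cut-offs were set on p from limma. The shares of peaks passing are therefore not those the study reported. By this definition 0 of the 11 windows changed in any knockout, where 0.911%, 0.966% and 1.46% of all peaks passed for Mutyh-/-, Ogg1-/- and DKO. In 0 of the 33 tests was the unadjusted p under 0.05, in limma and in edgeR. The median log2 fold change of the 11 windows was 0.01 for Mutyh-/-, 0.00 for Ogg1-/- and -0.12 for DKO, and over all peaks it was -0.07, 0.08 and -0.02. The DKO value was negative at 8 of 11 windows, against 52.2% of all peaks. Groups did not overlap in 2 of 11 windows for Mutyh-/-, 0 for Ogg1-/- and 1 for DKO, and in 5.77%, 3.68% and 5.02% of all peaks. The median 95% confidence interval reached 0.97 to either side of its estimate, so a doubling or halving at a given gene often lay within it. A departure of the DKO from the sum of both single knockouts passed at 0 of 11 windows and at 0.839% of all peaks.

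**Figure D3:**
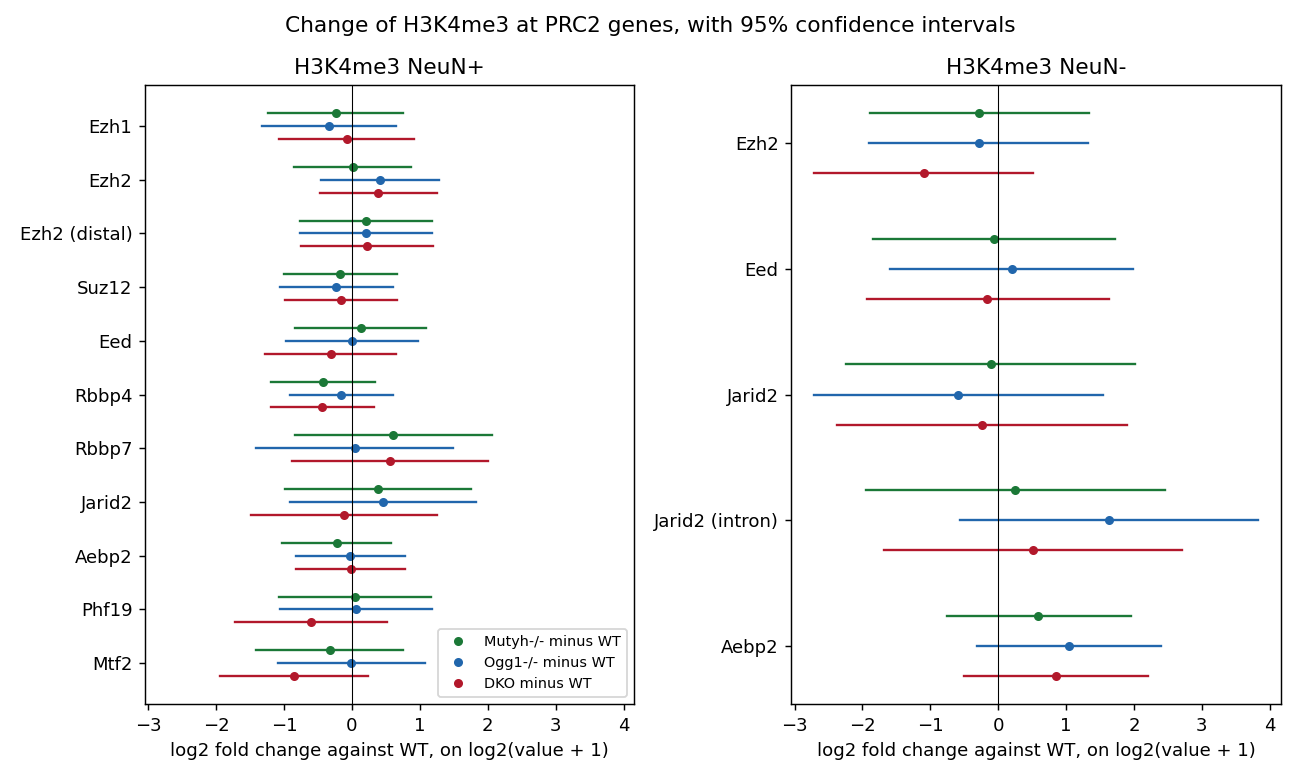
Log2 fold change of H3K4me3 against WT (x axis, on the log2(value + 1) scale) for each window of a PRC2 gene (y axis) in NeuN+ nuclei (left) and NeuN- nuclei (right). Points are limma estimates for each knockout and lines their 95% confidence intervals; the interval contains 0 at each window, and the intervals are wider in NeuN- nuclei, with a median half-width of 1.78 against 0.97.

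In NeuN- nuclei, 4 of the 10 genes kept an H3K4me3 promoter peak in the table: Ezh2, Eed, Aebp2 and Jarid2. Of the 11160 genes with such a peak in NeuN+ nuclei, 26.0% also had it in NeuN-, so the share of 4 in 10 is read against that figure and is not tested here. Ezh1, Suz12, Rbbp4, Rbbp7, Phf19 and Mtf2 had no peak there. The NeuN- table has 3270 peaks, fewer than that of NeuN+, so absence from it does not show that the mark was absent. In NeuN+ nuclei, the median WT level of the 4 members with a NeuN- peak was 25.9 and that of the 6 without was 29.0, while over all genes it was 29.2 with a NeuN- peak and 22.6 without.

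Ezh2 ranked highest of the 4 in NeuN- nuclei, at the 87.9th percentile of that table. Its H3K4me3 values were 13.8, 16.5 and 9.45 in WT, 19.0, 6.05 and 9.75 in Mutyh-/-, 12.9, 8.78 and 9.94 in Ogg1-/- and 24.1, 0 and 10.1 in DKO. The DKO thus held both the highest and the lowest library. Its log2 fold change was -1.10 (SE 0.81, limma adjusted p = 0.999), and without DKO replicate 1 it was -2.07 (limma adjusted p = 0.625). DKO replicate 2 had 0 reads in this window, and without it the value turned to 0.26. That library had the most reads in peaks of this table (120004) but was the lowest DKO library at each of the 4 promoters. Its signal summed over the 4 promoters was 7.15, against 67.8 and 53.6 in DKO replicates 1 and 3, so the low value was not particular to Ezh2.

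Aebp2 had 9.68, 11 and 3.55 in WT, 16.2, 5.19 and 17.9 in Mutyh-/-, 21.8, 9.58 and 19.9 in Ogg1-/- and 26.9, 4.29 and 22.3 in DKO. In each knockout, 2 libraries lay above the WT range and replicate 2 did not. The log2 fold changes were 0.59, 1.04 and 0.85 (SE 0.68), and without DKO replicate 2 that of the DKO was 1.61 (limma adjusted p = 1). Leaving out any other library took it no lower than 0.41. Eed had 2.77, 13.4 and 10.6 in WT, 19.0, 9.51 and 1.63 in Mutyh-/-, 12.9, 3.99 and 12.8 in Ogg1-/- and 8.36, 2.14 and 14.5 in DKO. At this gene the groups overlapped, with log2 fold changes of -0.06, 0.20 and -0.16 (SE 0.89). The Jarid2 promoter window of NeuN- nuclei (chr13:44731514-44731914) begins near the end of the NeuN+ window, and only 35.9% of its bases are G or C, against 52.6% there. It had between 1 and 9 reads per library, with values of 3.81, 6.91 and 3.25 in Mutyh-/- and 8.36, 0.715 and 6.70 in DKO. All 3 Ogg1-/- libraries (3.96, 3.99 and 1.42) lay below the WT libraries (4.15, 4.73 and 5.91), a log2 fold change of -0.59 (SE 1.07, limma adjusted p = 0.999).

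Over the 5 NeuN- windows, which include the Jarid2 intron described below, 0 passed the definition in any knockout, where 2.94%, 3.36% and 2.29% of all peaks passed for Mutyh-/-, Ogg1-/- and DKO. In 0 of the 15 tests was the unadjusted p under 0.05, in limma and in edgeR. Groups did not overlap at 0, 1 and 0 of the 5 windows for Mutyh-/-, Ogg1-/- and DKO, and in 9.24%, 8.29% and 5.02% of all peaks. For the departure from additivity 0 of 5 passed, against 3.03% of all peaks.

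No promoter of the 10 genes had a peak of H3K27me3 or of Suz12 in either fraction. Of genes with an H3K4me3 promoter peak in NeuN+ nuclei, 3.22% had a promoter peak of H3K27me3 in NeuN+ and 3.75% in NeuN-, and 1.66% and 0.179% had one of Suz12, so 0 of 10 is near what these shares give. Distances were measured from the start at the H3K4me3 promoter window. The closest H3K27me3 peak lay 18.3 kb from the start of Suz12, near Utp6, in NeuN+ nuclei. The closest Suz12 peak in both fractions lay 138 kb from that of Jarid2, in its intron. Peaks of the mark or of Suz12 that carry the name of a PRC2 gene were an intron window of Jarid2 and 6 windows far downstream of Aebp2.

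The Jarid2 intron was the one place among the 26 windows that appeared in nearly every table. A window at chr13:44869421-44869821 (shifted by at most 5 bases between tables), in intron 4 of 18 and 28.6 kb from the nearest start of a shorter Jarid2 transcript, was a peak of H3K27me3 and Suz12 in both fractions and of H3K4me3 in NeuN- nuclei. Its WT mean stood at the 98.1st percentile of H3K27me3 NeuN+, the 93.2nd of H3K27me3 NeuN-, the 95.4th of Suz12 NeuN+, the 83.3rd of Suz12 NeuN- and the 13.4th of H3K4me3 NeuN-. The last 300 bases of this window are shown because their letters bear on what the reads can be assigned to. Capitals mark the 244 bases that are not masked as repeats.
Jarid2 intron (chr13:44869522-44869821, plus strand): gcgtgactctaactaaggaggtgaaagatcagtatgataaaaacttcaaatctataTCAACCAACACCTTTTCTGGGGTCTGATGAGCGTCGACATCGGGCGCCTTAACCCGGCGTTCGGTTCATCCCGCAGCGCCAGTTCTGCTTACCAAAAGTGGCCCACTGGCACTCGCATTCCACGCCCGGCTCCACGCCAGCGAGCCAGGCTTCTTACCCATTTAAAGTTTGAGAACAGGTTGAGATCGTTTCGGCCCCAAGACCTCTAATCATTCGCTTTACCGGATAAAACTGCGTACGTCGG
The capital stretch holds 21 CpG, and it recurs in GRCm38 at 14 other places on 12 chromosomes, aligned over 182 to 239 bases with 91.9% to 98.4% identity. Of the other 21 windows of PRC2 genes, 0 had a further copy in the genome at 90% identity over at least 150 bases. Bases masked as repeats could not start a match in that search, so copies of masked parts can have been missed. This bears most on the Aebp2 windows 64.3 and 125.1 kb downstream, described below, with 50.9% and 56.1% of their bases masked. At 3 of the 14 copies, a peak lay within 1 kb in at least 4 of the tables. The copy in an intron of Filip1l had a peak in all 6, at the 99.8th percentile in WT for H3K27me3 NeuN+ and at the 98.5th for Suz12 NeuN+. How many of the reads in the Jarid2 window came from other copies was not tested. Whether the stretch belongs to a ribosomal DNA repeat, of which most copies are missing from the assembly, was not tested either, so the H3K27me3 and Suz12 values here cannot be tied to the Jarid2 intron alone. The values below are those of the window as deposited.

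Across genotypes the Jarid2 intron varied widely between libraries. In NeuN+ nuclei, its H3K27me3 values were 18.6, 11.1 and 24.1 in WT, 19.3, 42.0 and 31.0 in Mutyh-/-, 6.94, 26.1 and 44.2 in Ogg1-/- and 26.2, 28.1 and 44.1 in DKO. All 3 DKO libraries lay above the WT libraries, with a log2 fold change of 0.86 (SE 0.61, limma adjusted p = 0.998). Its Suz12 values in NeuN+ nuclei were 14.8, 32.7 and 44.3 in WT, 4.92, 29.0 and 17.2 in Mutyh-/-, 9.91, 31.8 and 15.0 in Ogg1-/- and 11.9, 18.8 and 36.2 in DKO. Each group overlapped with WT, and the log2 fold changes were -0.96, -0.69 and -0.45 (SE 0.96), where the median of all Suz12 peaks was -0.63, -0.57 and -0.06. For H3K27me3 that median was -0.21, -0.11 and -0.01, and no value of the window passed the test.

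In NeuN- nuclei the spread was larger. The H3K27me3 values were 6.62, 9.95 and 9.23 in WT, 50.9, 10.6 and 0 in Mutyh-/-, 49.1, 4.09 and 45.3 in Ogg1-/- and 48.6, 12.0 and 18.2 in DKO. WT libraries were close together, and the 3 DKO libraries all lay above them, with a log2 fold change of 1.29 (SE 1.08, limma adjusted p = 1). For Ogg1-/- the log2 fold change was 1.26, without Ogg1-/- replicate 2 it was 2.34 (limma adjusted p = 0.470), and without replicate 1 or 3 it was 0.69 and 0.75. The median of all peaks of this table was 0.29, 0.58 and 0.41 for Mutyh-/-, Ogg1-/- and DKO. The Suz12 values were 34.7, 14.1 and 2.75 in WT, 20.9, 40.5 and 28.7 in Mutyh-/-, 18.4, 32.2 and 15.7 in Ogg1-/- and 22.5, 34.2 and 8.05 in DKO. Here the log2 fold changes were 1.25, 0.81 and 0.63 (SE 0.97), and without WT replicate 1 that of Mutyh-/- was 2.00 (limma adjusted p = 0.801). Without WT replicate 3, which had 2 reads, it was 0.37. The median of all Suz12 peaks was 0.14, 0.52 and 0.26 in this fraction. H3K4me3 had 8.30, 6.30 and 0 in WT, 13.3, 6.91 and 0 in Mutyh-/-, 13.9, 7.98 and 14.2 in Ogg1-/- and 16.7, 10.0 and 0 in DKO. Replicate 3 was at 0 in each genotype but Ogg1-/-, which had a log2 fold change of 1.63 (SE 1.10, limma adjusted p = 0.999).

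**Figure D4:**
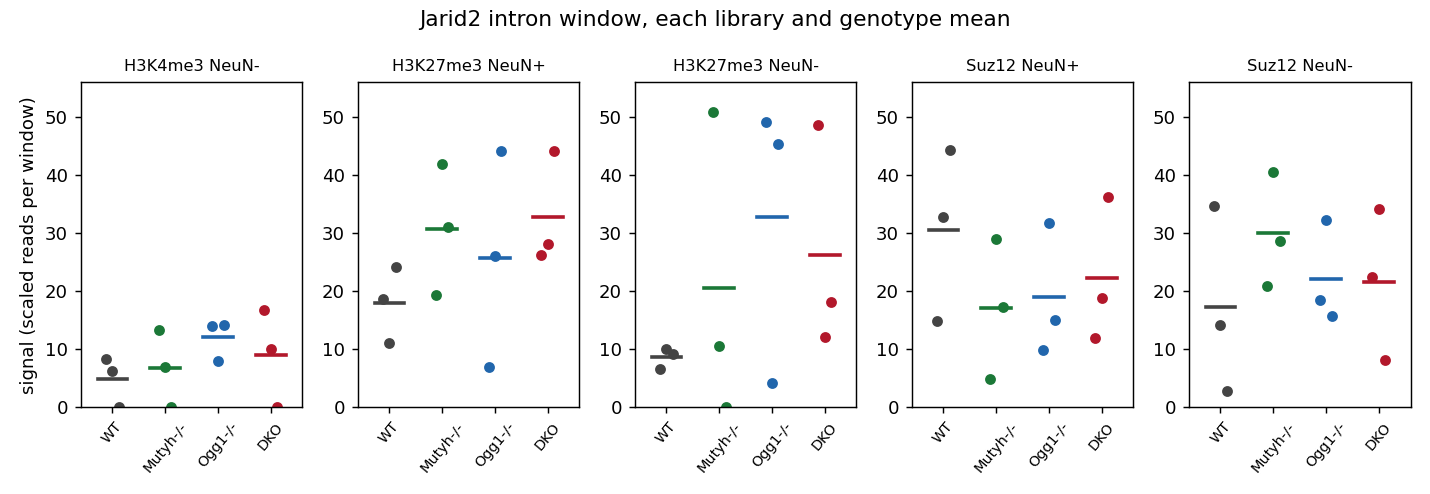
Signal (y axis, scaled reads per window) at the Jarid2 intron window in the 5 tables that hold it (panels), for the 4 genotypes (x axis). Points are the 3 libraries and bars their means; levels are comparable within a panel only, since each table was scaled separately, and in H3K27me3 NeuN- the WT libraries lie between 6.62 and 9.95 and the 9 knockout libraries between 0 and 50.9.

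By the definition of the study, the Jarid2 intron changed in 0 of 3 knockouts in each of H3K27me3 NeuN-, Suz12 NeuN+ and Suz12 NeuN-, in limma and in edgeR, with 0 unadjusted p values under 0.05. Of all peaks, 2.0%, 4.18% and 2.3% passed for Mutyh-/-, Ogg1-/- and DKO in H3K27me3 NeuN-. For Suz12 the shares were 5.16%, 3.74% and 2.58% in NeuN+, then 3.85%, 11.2% and 6.73% in NeuN-. Groups did not overlap for the DKO in H3K27me3 NeuN- alone, where 6.6%, 9.78% and 6.77% of all peaks did not for Mutyh-/-, Ogg1-/- and DKO. These shares were 7.61%, 8.26% and 5.68% in Suz12 NeuN+ and 6.73%, 17.3% and 10.9% in Suz12 NeuN-. The departure from additivity passed in 0 of these 3 tables, against 2.47%, 5.16% and 5.45% of all peaks.

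Aebp2, which contacts Suz12 and stabilises the complex, had 6 H3K27me3 windows in NeuN+ nuclei, all in intergenic sequence between 55.2 and 250.1 kb downstream of the nearest annotated start of the gene, which is that of a short internal transcript. From the start at the H3K4me3 window, the closest of them lay 78.3 kb away. They had between 0 and 22 reads per library, and their WT means stood between the 19.6th and the 56.4th percentile, so they are ordinary or weak windows of the table. They are assigned to Aebp2 as the closest gene.

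The window 64.3 kb downstream (chr6:140711072-140711472) was the one window of the 26 that passed the definition. Its H3K27me3 values were 4.38, 6.64 and 1.72 in WT (12 reads in all), 0 in all 3 Mutyh-/- libraries, 0.991, 7.32 and 0 in Ogg1-/- and 7.65, 2.91 and 4.81 in DKO. The limit of 3 reads over the group puts Mutyh-/- at 1.04, and the WT mean was 4.09-fold above it. The counting error of the 12 WT reads is not in that ratio, so it is no lower bound. On the log2(value + 1) scale the change of Mutyh-/- against WT was -2.27 (SE 1.06, limma adjusted p = 0.998). The departure of the DKO from additivity was 3.46 (SE 1.5, limma adjusted p = 0.989). In DKO, which lacks Mutyh too, the change was 0.27. Of its bases, 50.9% are masked as repeats. Without WT replicate 1 or 2 the change was -2.19 and -1.94 and its unadjusted p was no longer under 0.05. The same held without Mutyh-/- replicate 1, 2 or 3, with the change at -2.27 each time, whereas without WT replicate 3 it was -2.68. Without Ogg1-/- replicate 3 the departure from additivity was 2.78 (limma adjusted p = 0.885).

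At the window 125.1 kb downstream the Mutyh-/- libraries (2.03, 0 and 2.00) also lay below the WT libraries (5.48, 5.54 and 6.03), with a log2 fold change of -1.68 (SE 0.97, limma adjusted p = 0.998). Of its bases, 56.1% are masked. At the window 133.2 kb downstream the DKO had 6.56, 21.3 and 8.82 against 3.29, 0 and 6.89 in WT, a log2 fold change of 1.87 (SE 0.98, limma adjusted p = 0.998). It passed the unadjusted definition without WT replicate 3 (2.51, limma adjusted p = 0.998) and without Ogg1-/- replicate 3 (1.87, limma adjusted p = 0.997), and without WT replicate 2 the change was 1.02. Values at the windows 55.2, 75.6 and 250.1 kb downstream lay between 0 and 11.5 and overlapped with WT in each knockout.

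**Figure D5:**
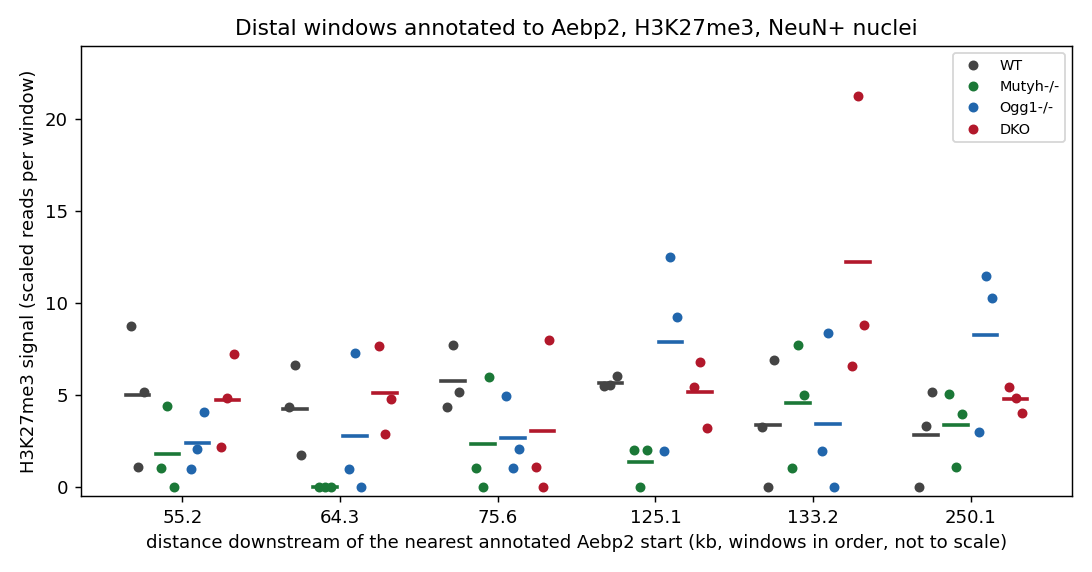
H3K27me3 signal (y axis, scaled reads per window) at the 6 windows downstream of Aebp2 in NeuN+ nuclei, ordered by their distance from the nearest annotated start of the gene (x axis, kb, not to scale). Points are the 3 libraries of each genotype and bars their means; at 64.3 kb the 3 Mutyh-/- libraries are at 0 and the WT libraries between 1.72 and 6.64, and at 133.2 kb a DKO library reaches 21.3.

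Among the 7 H3K27me3 windows of NeuN+ nuclei, the Jarid2 intron included, 1 passed for Mutyh-/-, 0 for Ogg1-/- and 0 for DKO, where 3.78%, 3.82% and 3.36% of all peaks passed. Both limma and edgeR had 1 of 21 unadjusted p values under 0.05. Groups did not overlap at 2 windows for Mutyh-/-, 0 for Ogg1-/- and 1 for DKO, and in 9.15%, 9.17% and 9.08% of all peaks. The departure from additivity passed at 1 of 7, against 3.92% of all peaks. Over all 26 windows and 3 knockouts, 1 of 78 tests passed and groups did not overlap in 8, and the adjusted p was 0.803 or more in each. By table and knockout, between 0.911% and 11.2% of all peaks passed, and groups did not overlap in between 3.68% and 17.3%. The 26 windows count the Jarid2 intron once in each table that holds it. Over all peaks and knockouts, an adjusted p under 0.05 was reached in 0.0714% of tests in H3K4me3 NeuN-, 0.0565% in H3K27me3 NeuN+, 0.043% in Suz12 NeuN+ and 0.0% in the other tables.

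Whether a knockout acted differently in NeuN+ and NeuN- nuclei was tested at the 6 places that overlapped between fractions. These were the promoters of Ezh2, Eed, Aebp2 and Jarid2 for H3K4me3, and the Jarid2 intron for H3K27me3 and for Suz12. None of the 18 differences passed the definition in limma, and edgeR had 0 unadjusted p values under 0.05, as limma did. Of all pairs of peaks, 2.3%, 1.8% and 1.8% passed for Mutyh-/-, Ogg1-/- and DKO in H3K4me3, 2.01%, 2.41% and 0.803% in H3K27me3 and 4.07%, 8.14% and 4.65% in Suz12. The smallest unadjusted p was that of Ezh2 in DKO, whose log2 fold change was 0.39 in NeuN+ and -1.10 in NeuN-, a difference of 1.49 (SE 1.00, limma adjusted p = 1). Without NeuN- DKO replicate 1 the difference was 2.46 (limma adjusted p = 0.780). Without NeuN- DKO replicate 2, which had 0 reads and was low at each H3K4me3 promoter named above, it was 0.14. For Aebp2 in DKO it was -0.87 (SE 0.81), and without NeuN- DKO replicate 2 it was -1.63 (limma adjusted p = 0.999), and without NeuN- WT replicate 3 or DKO replicate 1 it was -0.43. For Suz12 at the Jarid2 intron, the change was negative in NeuN+ and positive in NeuN- in each knockout, with differences of -2.21, -1.49 and -1.08 (SE 1.53). The medians of all Suz12 peaks had the same signs, at -0.63, -0.57 and -0.06 in NeuN+ and 0.14, 0.52 and 0.26 in NeuN-.

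Other genes of the Polycomb system were counted in the same way. The list held 34 genes, namely further PRC2 partners (such as Phf1 and Epop), subunits of Polycomb repressive complex 1 (such as Ring1, Rnf2, Bmi1 and the Cbx and Phc genes), which reads H3K27me3 and ubiquitinates histone H2A, demethylases of H3K27 (Kdm6a, Kdm6b and Uty) and the H2A deubiquitinase with its Asxl partners. In H3K4me3 NeuN+, 30 of the 34 had a peak, with 37 peaks of which 33 lay at promoters, and in H3K4me3 NeuN- 11 had one. H3K27me3 had peaks at 2 of the 34 genes in each fraction, and Suz12 at 2 in NeuN+ and 0 in NeuN-. Of their 111 tests against WT in H3K4me3 NeuN+, 0 passed the definition in limma in either direction, against 1.11% over all peaks. In H3K4me3 NeuN-, H3K27me3 NeuN+, H3K27me3 NeuN- and Suz12 NeuN+, 0 of 36, 6, 21 and 9 tests passed, against 2.86%, 3.65%, 2.83% and 3.83%. The median log2 fold change of the list in H3K4me3 NeuN+ was -0.01, against 0.00 over all peaks, and in H3K4me3 NeuN- 0.10 against 0.17. With few peaks each, it was 0.31 against -0.11 in H3K27me3 NeuN+, 0.50 against 0.42 in H3K27me3 NeuN- and 0.42 against -0.40 in Suz12 NeuN+.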

How the data were processed

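The 6 tables cover 3 antibodies in both fractions of sorted hippocampal nuclei, and input libraries were not used here. The authors aligned reads to GRCm38 with Bowtie2 (v2.3.5.1), called peaks with epic2, counted reads over consensus peaks with DiffBind (v3.10.1) and annotated each to its closest gene with ChIPseeker (v1.36), with versions from the submitters' processing notes. The deposited values are signal: reads per window divided by a factor for each library. All values of a library were whole multiples of 1 step, so whole reads were recovered. Consensus peaks needed support in several replicates, so weak promoters can be missing, and tables were scaled separately, so levels were not tested between tables.

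The main test was limma-trend (limma 3.58.1, R 4.3.3) on log2(value + 1), with 12 libraries and genotype as the only term. This scale understates changes at low values. Adjusted p is the Benjamini-Hochberg value over all peaks of a table. In H3K27me3 and Suz12, the prior degrees of freedom were infinite, so a window's own spread did not enter its p. In H3K4me3 they were 24.9 in NeuN+ and 58.3 in NeuN-, against 8 residual. Labels do not say whether replicates share litters. In H3K4me3, p-values draw in part on the spread between the libraries at a window. In H3K27me3 and Suz12 they rest on a spread estimated over all windows of the table. Differences between fractions were tested in 1 fit of 24 libraries on peaks shared one to one between fractions by at least 1 base. This fit took the 24 libraries as independent, although per the methods both fractions were collected in sorting. The Jarid2 promoter windows share only positions 44731514 to 44731541, and that pair dropped out when an overlap of at least 200 bases was asked for.

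Alternatives were a pseudocount of 5, a mean value of at least 10, TMM factors, the edgeR quasi-likelihood test (edgeR 4.0.16) on recovered reads, robust empirical Bayes, a replicate block and leaving out each replicate. Scripts were tested on simulated data. Copies of window sequence were searched with blastn, where bases masked as repeats could not start a match. Counting intervals and floors (3 reads) cover counting error only. Every window with a member's symbol was described, and the members, the Polycomb list and the motifs were chosen with earlier results of these data known. Same-numbered WT and Mutyh-/- libraries of Suz12 NeuN+ deviated together, with correlations of 0.388, 0.186 and 0.119. With WT, the same-numbered Ogg1-/- libraries there had correlations of 0.285, 0.226 and 0.0714, and those of DKO 0.213, 0.177 and 0.0396. Whether the numbers, taken from the labels, stand for pairs was not tested.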

Additional observations from a re-analysis of the deposited data

How the results depend on the processing

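No direction of a called value reversed under any alternative. Counts of called windows in a knockout moved as follows. In H3K4me3 NeuN+ the count of 0 became 1 with TMM factors (Mtf2, DKO) and ranged from 0 to 1 when replicates were left out. In H3K27me3 NeuN+ the count of 1 became 0 with a mean value of at least 10, which keeps 1 of 7 windows, and 2 with TMM factors or under the replicate block, and ranged from 0 to 2 when replicates were left out. The second window was the one 133.2 kb downstream of an Aebp2 start, which also took the place of the first with a pseudocount of 5. When replicates were left out, the count ranged from 0 to 1 in H3K4me3 NeuN-, H3K27me3 NeuN- and Suz12 NeuN-, and stayed at 0 in Suz12 NeuN+. The departure from additivity in H3K27me3 NeuN+ became 0 with a mean value of at least 10 and ranged from 0 to 1 when replicates were left out. The fraction difference ranged from 0 to 1 in H3K4me3. Of 2388 values of single windows under the alternatives, 153 changed sign with no call on either side, 14 gained and 7 lost a call. The smallest adjusted p in any of these fits was 0.379.

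The replicate block is a term for the replicate number over all genotypes of a table. In Suz12 NeuN+ it left Mutyh-/- at the Jarid2 intron at a log2 fold change of -0.96. The limma adjusted p there was 0.440, against 0.916 without the block. Across the tables the block changed 1 call, that of the DKO at the Aebp2 window in H3K27me3 NeuN+ (1.87, limma adjusted p = 0.968). Single reads weigh most at low windows, where 1 read is worth between 0.623 and 2.26 units.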
